A study of Mus musculus with 7 samples.

Results

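Transcript levels of p53 (Trp53), of its inhibitors Mdm2 and Mdm4, and of 7 genes that p53 is known to switch on (Cdkn1a, Ccng1, Zmat3, Bbc3, Trp53inp1, Phlda3 and Sesn2) were examined in T-cells of ORP4L KI mice and WT littermates. The 10 genes were chosen by name, from their place in the p53 pathway and with earlier results of these data known, among 25033 genes listed. All 10 were among the 13462 genes with enough counts to be tested. RNA sequencing was done on 7 libraries, each from a different mouse: 3 WT mice and 4 mice with the genotype given as ORP4L knock-in, all of strain C57BL/6J and aged 15 months. In ORP4L KI mice, a tagged human ORP4L with an EGFP reporter sits at the Rosa26 locus behind a stop cassette, and a Cre driven by the Lck promoter, which is active in T lineage cells, removes that cassette. The KI mice were sampled when moribund, so genotype and disease state cannot be told apart, and mice of both sexes were used. T-cells came from blood mononuclear cells or spleen, and the source of each library is not given in the labels or the methods. For mouse T-cells in general, the methods describe selection of naive CD4+ cells with a kit, a step that would remove granulocytes, and then culture with IL-2 and the mitogen PHA, and they do not say whether these libraries had either step. The study asked whether p53 was inhibited in ORP4L KI T-cells together with activation of AKT and NF-κB, and it measured p53 phosphorylation. The counts described here are of transcripts and do not measure p53 protein or its phosphorylation.

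p53 is a transcription factor that is held at a low level in unstressed cells, because the ubiquitin ligase Mdm2 marks it for degradation and the related protein Mdm4 blocks its activity. When DNA damage or another stress stabilises p53, it switches on genes for cell cycle arrest, cell death and repair, and also Mdm2 itself, so that p53 activity limits itself through a feedback loop. In T lineage cells p53 is known as a tumour suppressor, since mice that lack it often develop thymic lymphoma.

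p53 binds pairs of a short half-site, and the stretches of promoter that hold a match to the half-site are shown for the genes that the results turn on and for Ccng1, which has a match too. RefSeq promoters (GRCm38.p6, 250 bases before to 50 after a transcript start) were matched by symbol to 8 of the 10 genes, in 12 windows, and not to Zmat3 and Trp53inp1. The consensus half-site of p53, which has 10 letters, reads the same on both strands, and no other motif was searched. A match was found in 4 of the 12 windows (Mdm2, Ccng1, Trp53 and the upstream window of Cdkn1a), and in 8.36% of all 32851 windows. Sites outside these windows were not searched, so a gene without a match may still have a p53 site elsewhere. The upstream Cdkn1a window holds a pair of matches 12 bases apart, and a pair at most 13 bases apart was found in 0.0731% of all windows (24 windows). Capitals mark the matches, and each stretch is written 5′ to 3′ along the strand of its gene. No mismatch was allowed, so the 10 bases directly after the downstream Cdkn1a match are not marked. They depart from the consensus in their first letter only, and which pair p53 binds was not tested. A match is a description of the sequence, and no binding was measured.
Mdm2, chr10:117710910-117710969 (-), match starting 186 bases before the transcript start: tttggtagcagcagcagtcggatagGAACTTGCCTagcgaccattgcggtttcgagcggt
Trp53, chr11:69580259-69580318 (+), match starting 75 bases before the transcript start: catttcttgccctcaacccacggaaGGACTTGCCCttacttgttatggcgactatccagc
Cdkn1a, chr17:29090881-29090962 (+), matches starting 73 and 51 bases before the transcript start: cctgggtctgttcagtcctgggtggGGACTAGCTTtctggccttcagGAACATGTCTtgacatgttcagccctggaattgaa
Ccng1, chr11:40755437-40755496 (-), match starting 185 bases before the transcript start: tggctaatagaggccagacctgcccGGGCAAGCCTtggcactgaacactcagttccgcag

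WT libraries held 12918187 to 15912921 counts and ORP4L KI libraries 16757959 to 19665679. As a check of the genotypes, Osbp2 (the mouse counterpart of ORP4L) was counted 0, 0 and 1 times in WT and 155 to 742 times in ORP4L KI, where reads of the introduced human sequence and of the mouse gene cannot be told apart. The 10 T-cell markers examined (Cd3d, Cd3e, Lck and others) were all detected in both groups, and together took 0.196% to 0.283% of counts in WT and 0.0971% to 0.364% in ORP4L KI. All 14 granulocyte markers (Mpo, Elane, S100a8, S100a9, Ly6g and others) were higher in ORP4L KI with an unadjusted p under 0.01 and over 1 log2 unit of change, beside 4.68% of all genes tested in either direction. Of the 14, 0 passed an adjusted p under 0.05 in edgeR's quasi-likelihood test, beside 0.0223% of all genes. Their summed share was 0.186% to 0.530% of counts in WT against 12.2%, 1.12%, 3.06% and 4.91% in ORP4L KI replicates 1 to 4. The 9 monocyte and macrophage markers took 0.311% to 0.465% of counts in WT and 0.230% to 0.597% in ORP4L KI. Their sum does not stand for each marker, since 7 had a log2 fold change below 0 and 2 above, with a median of -0.74. The 8 B-cell markers took 0.0374% to 0.0627% in WT and 0.0218% to 0.0598% in ORP4L KI. Erythroid markers took 1.08% to 1.85% of counts in WT and 0.117% to 0.851% in ORP4L KI. In bulk libraries, fewer cells of a type and less RNA per cell cannot be told apart. WT replicate 3 and ORP4L KI replicate 2 stood apart from the other libraries in a further way: genes with transcripts of 5000 bases or more were high relative to genes with transcripts under 1500 bases. Xist was high and Ddx3y low in WT replicate 1 and in ORP4L KI replicates 1 and 2, and the reverse held in the other libraries, so that each group held mice with either pattern.

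Trp53 transcript did not differ detectably between the groups. Mdm2 was higher in every ORP4L KI library than in any WT library, at 1.68 times the WT mean, but its adjusted p missed the threshold in edgeR's quasi-likelihood test. Mdm4 overlapped between the groups. Values are CPM, the count of a gene divided by the library total (in units of 1e+06 counts) and scaled between libraries by TMM, and adjusted p-values are Benjamini-Hochberg values of edgeR's quasi-likelihood test over all 13462 genes.

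Trp53 (chromosome 11, 69580348 to 69591873 in GRCm38), which encodes p53, had 123, 113 and 92.2 CPM in WT replicates 1 to 3 and 94.2, 103, 97.2 and 108 CPM in ORP4L KI replicates 1 to 4. Every ORP4L KI value lay between the lowest and the highest WT value. The means were 109 ± 15.9 CPM (SD, n = 3) in WT and 101 ± 6.06 CPM (SD, n = 4) in ORP4L KI. The log2 fold change was -0.12 (SE 0.18, adjusted p = 0.845), and its 95% interval ran from 0.697-fold to 1.21-fold. With WT replicate 1 left out it was -0.03, and with WT replicate 3 left out -0.23.

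Mdm2 (chromosome 10, 117688875 to 117710758), which encodes the ubiquitin ligase of p53 and is itself a p53 target, had 79.1, 88.5 and 109 CPM in WT and 174, 152, 137 and 159 CPM in ORP4L KI. The groups did not overlap, and the gap from the highest WT to the lowest ORP4L KI library was from 109 to 137 CPM. The means were 92.3 ± 15.5 CPM (SD, n = 3) and 155 ± 15.4 CPM (SD, n = 4). This gave a log2 fold change of 0.75 (SE 0.19), with a 95% interval from 1.25-fold to 2.27-fold. The unadjusted p was 0.00341, which was number 390 of all 13462 genes in order of p, and the adjusted p was 0.117. The exact permutation test of the mean log2 CPM (two-sided, 3 against 4 libraries) gave p = 0.0286, the smallest p that its 35 assignments allow, for 1 of the 10 genes tested in this way. With other tests on the same counts the adjusted p of Mdm2 passed the threshold. It was 0.00763 by the Wald test of DESeq2, and 0.0391 and 0.0368 by the exact and likelihood ratio tests of edgeR, which in this order called 784, 682 and 706 genes in all at an adjusted p under 0.05 where the quasi-likelihood test called 3.

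Mdm2 is given here by pattern of Xist, without a test. Its groups did not overlap, so any split of the libraries shows ORP4L KI above WT. The part of the Xist pattern in the Mdm2 difference was not tested. In the libraries with high Xist, Mdm2 was at 79.1 CPM in the 1 WT library and at 174 and 152 CPM in the 2 ORP4L KI libraries. In the libraries with low Xist it was at 88.5 and 109 CPM in WT and at 137 and 159 CPM in ORP4L KI. The granulocyte markers also moved with the groups. ORP4L KI replicate 1 had the highest granulocyte share (12.2%) and the highest Mdm2 (174 CPM), and without it the log2 fold change of Mdm2 was 0.69. ORP4L KI replicate 2 had the lowest granulocyte share in its group (1.12%) and 152 CPM of Mdm2. The part of other cells in the Mdm2 difference was not tested.

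Mdm4 (chromosome 1, 132986105 to 133030587), which encodes a relative of Mdm2 that binds and blocks p53, had 146, 150 and 297 CPM in WT and 152, 214, 155 and 128 CPM in ORP4L KI. WT replicate 3 was the highest of all libraries, and the other 2 WT libraries lay within the ORP4L KI range. The log2 fold change was -0.28 (SE 0.30, adjusted p = 0.771), and without WT replicate 3 it turned to 0.14. The gene range of Mdm4 overlaps a noncoding gene and a pseudogene in RefSeq, and the counting is not stated to use strand.

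**Figure D1:**
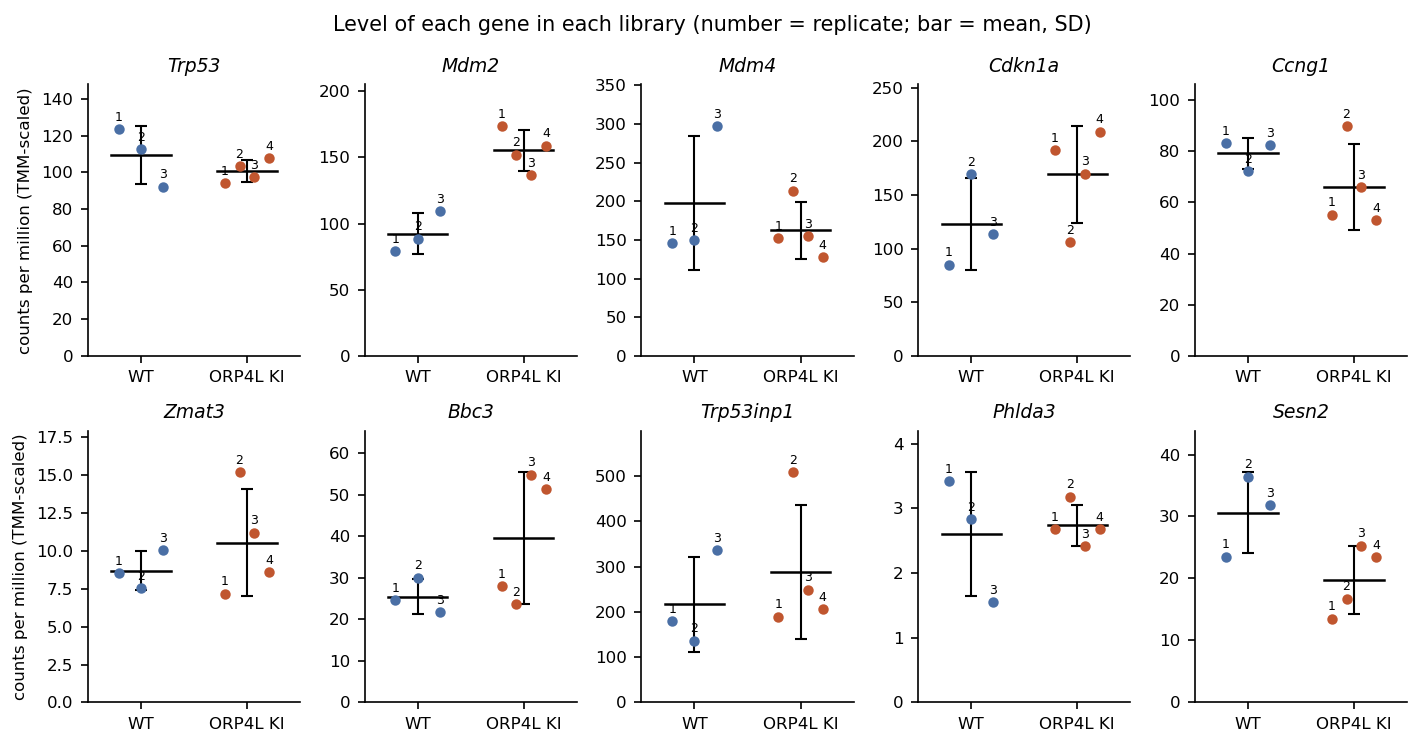
TMM-scaled CPM (vertical axes, starting at 0) of the 10 genes in each of 3 WT (blue) and 4 ORP4L KI (orange) libraries, with replicate numbers beside the points and the mean and SD in black. Only for Mdm2 do the ORP4L KI libraries (137 to 174 CPM) all lie above the WT libraries (79.1 to 109 CPM), while for Trp53 the ORP4L KI values fall inside the WT range.

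Among the targets for cell cycle arrest, no gene passed the test. Cdkn1a (chromosome 17, 29090979 to 29100722) encodes p21, the inhibitor of cyclin-dependent kinases that carries out much of the arrest by p53. Cdkn1a had 85.0, 169 and 114 CPM in WT and 192, 106, 170 and 209 CPM in ORP4L KI. The 3 ORP4L KI replicates 1, 3 and 4 lay above all WT libraries, the lowest of them by little, and replicate 2 lay inside the WT range. Cdkn1a thus had a log2 fold change of 0.46 (SE 0.30, adjusted p = 0.582), with a 95% interval from 0.861-fold to 2.21-fold. It was 0.26 without WT replicate 1 and 0.77 without WT replicate 2.

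Ccng1 (chromosome 11, 40748552 to 40755309) encodes cyclin G1, a p53 target that takes part in the control of Mdm2. It had 83.0, 72.3 and 82.5 CPM in WT and 55.2, 89.9, 65.9 and 52.9 CPM in ORP4L KI. ORP4L KI replicates 1, 3 and 4 were below all WT libraries and replicate 2 was above all of them. For Ccng1 the log2 fold change was -0.26 (SE 0.22, adjusted p = 0.691), and it was -0.47 without ORP4L KI replicate 2. Zmat3 (chromosome 3, 32334792 to 32365665), which encodes an RNA-binding zinc finger protein, had 8.51, 7.55 and 10.04 CPM in WT and 7.18, 15.2, 11.2 and 8.58 CPM in ORP4L KI. The groups overlapped, and ORP4L KI replicate 2 was highest. For Zmat3 the log2 fold change was 0.28 (SE 0.30, adjusted p = 0.777), and without ORP4L KI replicate 2 it was 0.03.

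Among the targets for cell death, Bbc3 was higher in 2 of 4 ORP4L KI libraries and no gene passed the test. Bbc3 (chromosome 7, 16308398 to 16318334) encodes PUMA, a BH3-only protein that triggers apoptosis at mitochondria. Bbc3 had 24.6, 30.0 and 21.8 CPM in WT and 28.002, 23.7, 54.8 and 51.3 CPM in ORP4L KI. Replicates 3 and 4 of ORP4L KI were well above all WT libraries, and replicates 1 and 2 lay inside the WT range. The 12 immediate-early and stress genes examined (Fos, Jun, Hspa1a and others) took their highest shares of counts in the same ORP4L KI libraries, 2.64% and 2.32% in replicates 3 and 4 beside 0.857% and 1.66% in replicates 1 and 2 and 1.85% to 1.99% in WT, and their part in Bbc3 was not tested. The log2 fold change was 0.63 (SE 0.32, unadjusted p = 0.0793, adjusted p = 0.443), with a 95% interval from 0.94-fold to 2.55-fold.

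Trp53inp1 (chromosome 4, 11156441 to 11174379) encodes a stress-induced protein that promotes p53 activity and autophagy. It had 179, 136 and 336 CPM in WT and 189, 508, 249 and 206 CPM in ORP4L KI. The highest library of each group, WT replicate 3 and ORP4L KI replicate 2, set the spread, and the other 5 libraries lay between 136 and 249 CPM. Trp53inp1 had a log2 fold change of 0.41 (SE 0.42, adjusted p = 0.763), and without ORP4L KI replicate 2 it was -0.04. Phlda3 (chromosome 1, 135766085 to 135769134), which encodes a PH domain protein that restrains AKT by competing for phosphoinositides, was the lowest of the 10 genes by CPM, with 22 to 58 counts per library. Phlda3 had 3.42, 2.83 and 1.55 CPM in WT and 2.68, 3.18, 2.41 and 2.67 CPM in ORP4L KI. All ORP4L KI values lay inside the WT range, and the log2 fold change was 0.07 (SE 0.35, adjusted p = 0.960), with a 95% interval from 0.612-fold to 1.81-fold.

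Sesn2 (chromosome 4, 132492804 to 132510456) encodes sestrin 2, a stress protein that restrains mTORC1. It had 23.5, 36.4 and 31.8 CPM in WT and 13.5, 16.8, 25.3 and 23.5 CPM in ORP4L KI. ORP4L KI replicate 3 lay between the WT values, and the other 3 ORP4L KI libraries were below all WT libraries, replicate 4 by so little that it rounds to the same value as WT replicate 1. Sesn2 had a log2 fold change of -0.63 (SE 0.27, unadjusted p = 0.0409, adjusted p = 0.331), with a 95% interval from 0.426-fold to 0.978-fold. Sesn2 was the gene with the lowest log2 fold change of the 10, and Mdm2 the one with the highest.

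Of the 10 genes, 6 had a log2 fold change above 0 and 4 below, with a median of 0.17 beside 0.013 over all genes tested. Of the 10, 0 genes passed an adjusted p under 0.05 in edgeR's quasi-likelihood test, where the share of all genes called was 0.0223%. The Wald, exact and likelihood ratio tests each called 1 of the 10 at that threshold, Mdm2, beside 784, 682 and 706 of all 13462 genes. The lines of the study's volcano plot lie at an unadjusted p of 0.01 and 1 log2 unit of change, and 0 of 10 genes passed both, beside 4.68% of all genes. At an unadjusted p under 0.05, 2 of 10 genes passed (Mdm2 higher, Sesn2 lower), beside 13.7% of all genes. The groups did not overlap for 1 of 10 genes (Mdm2), beside 13.8% of all genes. By each of these measures the share of the 10 genes was near the share among all genes or rested on 1 or 2 genes. The standard errors of the 10 log2 fold changes ran from 0.18 to 0.42, and the median coefficient of biological variation was 0.294 beside 0.287 over all genes.

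**Figure D2:**
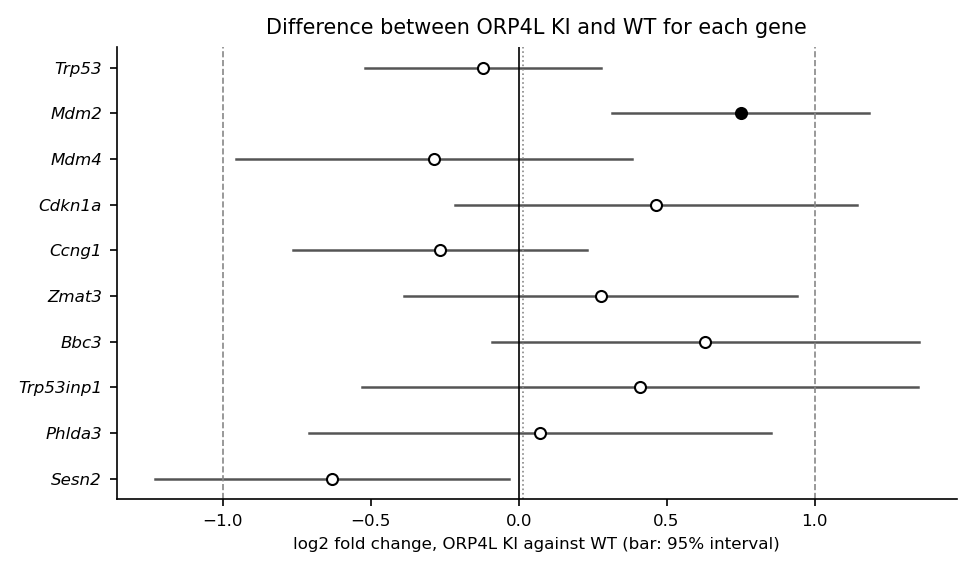
Log2 fold change of each gene in ORP4L KI against WT (horizontal axis) with its 95% interval from edgeR's quasi-likelihood fit. The filled point is the gene whose groups do not overlap, the dashed lines mark a log2 fold change of 1 in size and the dotted line the median of all genes (0.013). The intervals of Mdm2 and Sesn2 lie on 1 side of 0, before adjustment, and no point is past a dashed line.

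The ratio of 2 genes within a library does not depend on the scaling between libraries. Mdm2 was higher relative to both Trp53 and Mdm4 in ORP4L KI, without overlap of the groups. The ratio of Mdm2 to Trp53 counts was 0.641, 0.786 and 1.19 in WT and 1.84, 1.47, 1.41 and 1.47 in ORP4L KI. Trp53 reads outnumbered Mdm2 reads in WT replicates 1 and 2, and Mdm2 reads outnumbered Trp53 reads in all other libraries. The mean log2 ratio differed by 0.87 (p = 0.0286 by a two-sided exact permutation test, the lowest it can give, and 0.286 after adjustment over the 10 ratios computed). The ratio of Mdm2 to Mdm4 counts was 0.543, 0.591 and 0.368 in WT and 1.14, 0.712, 0.882 and 1.24 in ORP4L KI. Mdm2 reads were fewer than Mdm4 reads in all WT libraries, and fewer or more in ORP4L KI. The mean log2 ratio of Mdm2 to Mdm4 counts differed by 0.99 (exact permutation test, p = 0.0571, adjusted p = 0.286). These counts are not corrected for transcript length, which was 1772 bases for Trp53, 3099 for Mdm2 and 7298 for Mdm4. A ratio of genes of different length can also vary with the balance of long and short transcripts in a library. WT replicate 3 and ORP4L KI replicate 2 stood apart in that balance, and its part in these ratios was not tested. Per length, by RPKM, Mdm2 lay above Mdm4 in 2 of the 3 WT libraries and in all 4 ORP4L KI libraries. Both ratios share the Mdm2 counts and are not independent of its difference in CPM. The other 8 ratios, each of a gene to Trp53, overlapped between the groups, with log2 differences from -0.54 for Sesn2 to 0.66 for Bbc3 and exact p-values of 0.143 or more. The ratio of Cdkn1a to Trp53 was 0.688, 1.505 and 1.23 in WT and 2.04, 1.02, 1.75 and 1.94 in ORP4L KI, with replicate 2 of ORP4L KI below 2 of the WT libraries. The ratio of Bbc3 to Trp53 was 0.199, 0.267 and 0.236 in WT and 0.297, 0.229, 0.564 and 0.477 in ORP4L KI.

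**Figure D3:**
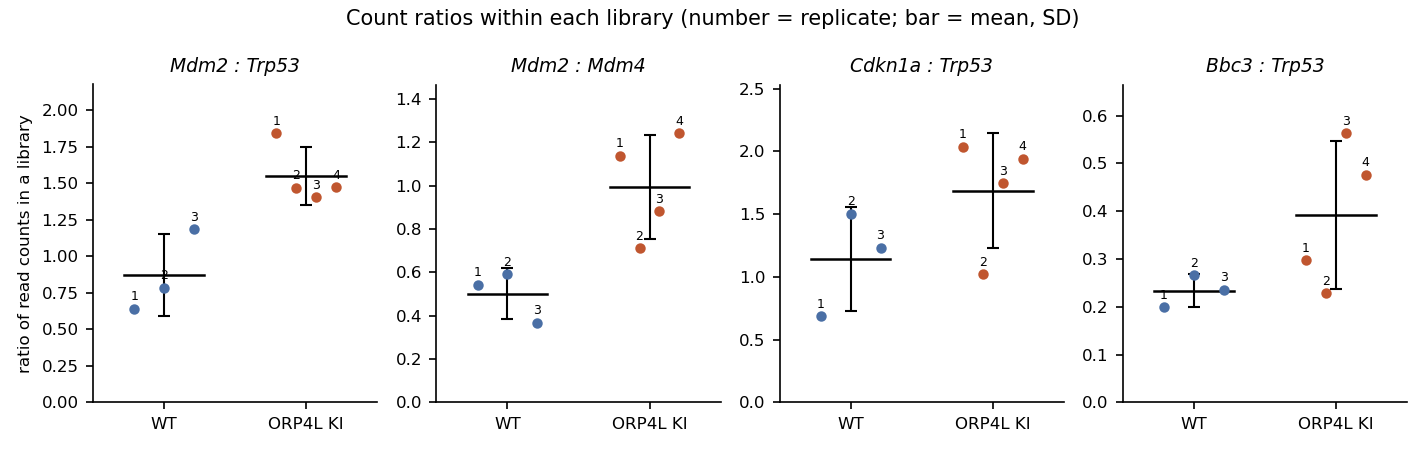
Ratio of read counts of 2 genes within each library (vertical axes, starting at 0), for 3 WT (blue) and 4 ORP4L KI (orange) libraries with replicate numbers, mean and SD. The ratios of Mdm2 to Trp53 (1.41 to 1.84 in ORP4L KI, 0.641 to 1.19 in WT) and of Mdm2 to Mdm4 do not overlap between the groups, and those of Cdkn1a and Bbc3 to Trp53 do.

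Levels of different genes were compared per transcript length, by the RPKM values that the authors deposited. Cdkn1a and Trp53 were the highest of the 10 genes in both groups, and Phlda3 and Zmat3 the lowest. In WT the means were 67.2 RPKM for Cdkn1a, 65.3 for Trp53, 43.2 for Trp53inp1, 31.7 for Mdm2, 29.0 for Mdm4, 24.2 for Ccng1, 13.6 for Bbc3, 12.2 for Sesn2, 1.87 for Phlda3 and 1.19 for Zmat3. The 6 highest overlapped with their neighbours in this order, Ccng1 lay above Bbc3 and Sesn2 above Phlda3 in all 3 libraries without overlap, and the other neighbours overlapped. In ORP4L KI the means were 83.1 RPKM for Cdkn1a, 54.6 for Trp53, 53.2 for Trp53inp1, 47.8 for Mdm2, 21.6 for Mdm4, 19.1 for Bbc3, 18.5 for Ccng1, 7.18 for Sesn2, 1.80 for Phlda3 and 1.33 for Zmat3. Here Mdm2 lay above Mdm4, Ccng1 above Sesn2 and Sesn2 above Phlda3 without overlap, and all other neighbours overlapped. Cdkn1a stood at the 93.6th percentile of the genes with a read in WT, and Zmat3 at the 36.6th.

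Several of the 10 genes varied within a group with transcript length. For each library, a score was taken as the median log2 level of 2270 genes with transcripts of 5000 bases or more minus that of 2510 genes under 1500 bases, each gene centred on its mean over the libraries. The score was -0.26, -0.29 and 0.82 in WT and -0.64, 0.61, -0.01 and -0.28 in ORP4L KI, highest in WT replicate 3 and ORP4L KI replicate 2. Mdm4, Trp53inp1 and Zmat3, the 3 of the 10 genes with deposited lengths over 5000 bases (7298, 5394 and 7782), had their highest value of each group in these libraries. An alternative added after the data were seen took the score as a covariate. Mdm2 then had a log2 fold change of 0.77 and an adjusted p of 0.0453 in edgeR's quasi-likelihood test, which called 416 genes in all. In the same fit the log2 fold change was 0.58 for Trp53inp1 (unadjusted p = 0.00698, adjusted p = 0.0974), -0.11 for Mdm4 and 0.33 for Zmat3, and none of these 3 passed the adjusted threshold. With both libraries left out, the log2 fold change of Mdm2 was 0.90 and its adjusted p was 0.116.

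**Figure D4:**
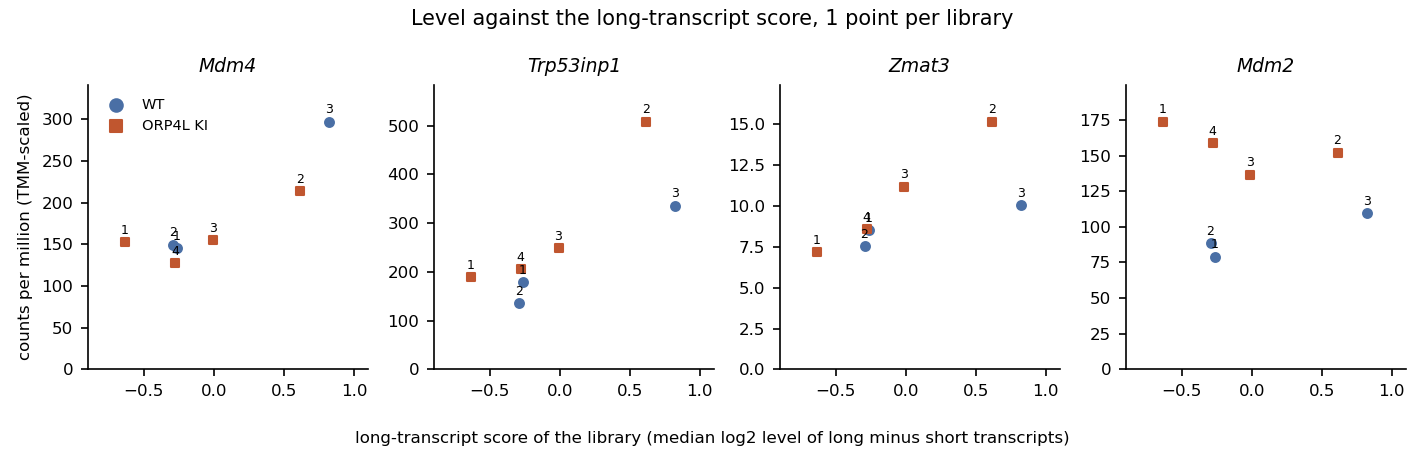
Level of 4 genes in TMM-scaled CPM (vertical axes) against the long-transcript score of each library (horizontal axes, log2), with WT as blue circles, ORP4L KI as orange squares and replicate numbers. Mdm4, Trp53inp1 and Zmat3 are highest in WT replicate 3 (score 0.82) and ORP4L KI replicate 2 (score 0.61) within their groups. For Mdm2 all ORP4L KI squares lie above all WT circles, which would hold against any horizontal axis.

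The rest of the pathway was taken from lists of p53 regulators, other p53 targets and cell cycle genes, chosen with earlier results of these data known. Of 22 regulators, which include the kinases that phosphorylate p53, the acetyltransferases and the other ligases, 20 were tested and 0 passed either threshold of edgeR's quasi-likelihood test (beside 4.68% and 0.0223% of all genes), with 2 at an unadjusted p under 0.05 (13.7% of all genes) and a median log2 fold change of 0.09. The alternative tests also called 0 regulators at an adjusted p under 0.05. Of all 13462 genes, the Wald, exact and likelihood ratio tests called 784, 682 and 706. The regulator with the smallest p was Chek2, a DNA damage kinase that phosphorylates p53. Chek2 had 2.92, 2.89 and 2.46 CPM in WT and 6.76, 5.04, 4.59 and 3.11 CPM in ORP4L KI, higher in all 4 libraries (log2 fold change 0.82, unadjusted p = 0.0331, adjusted p = 0.304). The p53 relatives Trp63 and Trp73 were too low to test, with at most 7 counts of either in any library.

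Of 34 other p53 targets in 4 lists, 32 were tested, and 2 were higher and 0 lower at an unadjusted p under 0.01 with a log2 fold change above 1 (beside 4.68% of all genes in either direction). The median log2 fold change was 0.21, with 18 genes above 0 and 14 below. Perp, a membrane protein linked to p53-dependent death and to cell adhesion, had 2.67, 1.26 and 1.47 CPM in WT and 7.91, 8.11, 5.40 and 8.15 CPM in ORP4L KI. All ORP4L KI libraries were above all WT libraries (log2 fold change 2.03, SE 0.35, unadjusted p = 0.000241, adjusted p = 0.0603). Perp passed an adjusted p under 0.05 in the Wald, exact and likelihood ratio tests (3.8e-06, 7.69e-05 and 5.33e-05), and in the quasi-likelihood test with no filter, with the long-transcript score as a covariate or without ORP4L KI replicate 2. Gadd45a, a stress-induced gene of arrest and repair, had 109, 175 and 84.0 CPM in WT and 552, 116, 329 and 548 CPM in ORP4L KI. ORP4L KI replicate 2 lay inside the WT range and the other 3 were above it (log2 fold change 1.65, SE 0.51, unadjusted p = 0.0096, adjusted p = 0.175). The order of Gadd45a over the ORP4L KI libraries was that of their granulocyte shares (12.2%, 4.91%, 3.06% and 1.12% in replicates 1, 4, 3 and 2), and the part of granulocytes in it was not tested. Gadd45a did not pass the unadjusted threshold without WT replicate 1 or 3 or without ORP4L KI replicate 1, 3 or 4. The same held under upper-quartile scaling, with a filter of 10 counts in every library, and on replicates 1 to 3 with the replicate number as a block. It passed an adjusted p under 0.05 in the Wald, exact and likelihood ratio tests (0.0189, 0.0379 and 0.0334) and without ORP4L KI replicate 2 (0.02).

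In the list for DNA repair and nucleotide supply, where 0 of 5 genes passed either threshold (beside 4.68% and 0.0223% of all genes), Xpc had the smallest p. Xpc, which recognises DNA lesions, had 16.8, 17.9 and 20.7 CPM in WT and 34.8, 23.4, 21.8 and 22.7 CPM in ORP4L KI. It was higher in all 4 ORP4L KI libraries, 3 of them by little (log2 fold change 0.47, adjusted p = 0.409). In the list for metabolism and stress, where 0 of 9 genes passed, Prkab1 had the smallest p. Prkab1, a subunit of the AMP-activated kinase, had 54.8, 47.0 and 44.6 CPM in WT and 75.8, 53.9, 68.7 and 77.8 CPM in ORP4L KI (log2 fold change 0.50, unadjusted p = 0.0299, adjusted p = 0.293). The groups overlapped by 1 ORP4L KI library, replicate 2.

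Of the 6 lists, the one with the highest median was that of genes that p53 is known to repress through p21 and the DREAM complex, and which drive the cell cycle from S phase to mitosis. All 15 were tested and had a log2 fold change above 0, with a median of 1.19. Of the 15, 3 passed an unadjusted p under 0.01 with a log2 fold change above 1, all higher (4.68% of all genes passed in either direction), 13 passed an unadjusted p under 0.05 (13.7% of all genes), 9 did not overlap between the groups (13.8% of all genes), and 0 passed an adjusted p under 0.05 in edgeR's quasi-likelihood test. The Wald, exact and likelihood ratio tests called 7, 3 and 4 of them at that threshold, beside 784, 682 and 706 of all 13462 genes. By the unadjusted threshold with a log2 fold change above 1 each called 9, beside 855, 852 and 870 of all 13462 genes. Mki67, the proliferation marker Ki-67, had 134, 105 and 84.1 CPM in WT and 336, 211, 196 and 185 CPM in ORP4L KI (log2 fold change 1.11, SE 0.27, adjusted p = 0.110). Top2a, the topoisomerase of dividing cells, had 78.8, 58.4 and 50.7 CPM in WT and 194, 106, 97.9 and 109 CPM in ORP4L KI (log2 fold change 1.01, SE 0.29, adjusted p = 0.147). Cdc25c, the phosphatase that starts mitosis, had 2.24, 1.64 and 0.70 CPM in WT and 8.95, 3.56, 3.79 and 4.67 CPM in ORP4L KI (log2 fold change 1.77, SE 0.49, adjusted p = 0.142). All 3 genes were higher in every ORP4L KI library than in any WT library.

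The 15 genes together took 0.0489%, 0.0352% and 0.0265% of counts in WT and 0.115%, 0.0605%, 0.0592% and 0.0574% in ORP4L KI. ORP4L KI replicate 1, which also had the highest granulocyte share (12.2%) and the lowest T-cell share (0.0971%), stood far above the other 3 libraries of its group. Without ORP4L KI replicate 1, 0 of the 15 passed the unadjusted threshold with a log2 fold change above 1 (567 of all 13338 genes passed). The same held without WT replicate 2 (328 of all 13700) and without WT replicate 3 (509 of all 13702). Without ORP4L KI replicate 2, 10 passed (805 of all 13351). With both libraries highest in long transcripts left out 0 passed (629 of all 13612). The number was 1 under scaling by total counts (682 of all 13462) and 7 with no filter (771 of all 18501). It was 8 with the long-transcript score as a covariate (701 of all 13462). Whether any of these cells were in culture with IL-2 and PHA, which drive T-cells to divide, is not stated. The part of granulocytes or other cells in the values of the cell cycle genes was not tested. Cdkn1a, whose product p21 acts upstream of these genes, had 85.0, 169 and 114 CPM in WT and 192, 106, 170 and 209 CPM in ORP4L KI. Its relation to these genes was not tested.

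**Figure D5:**
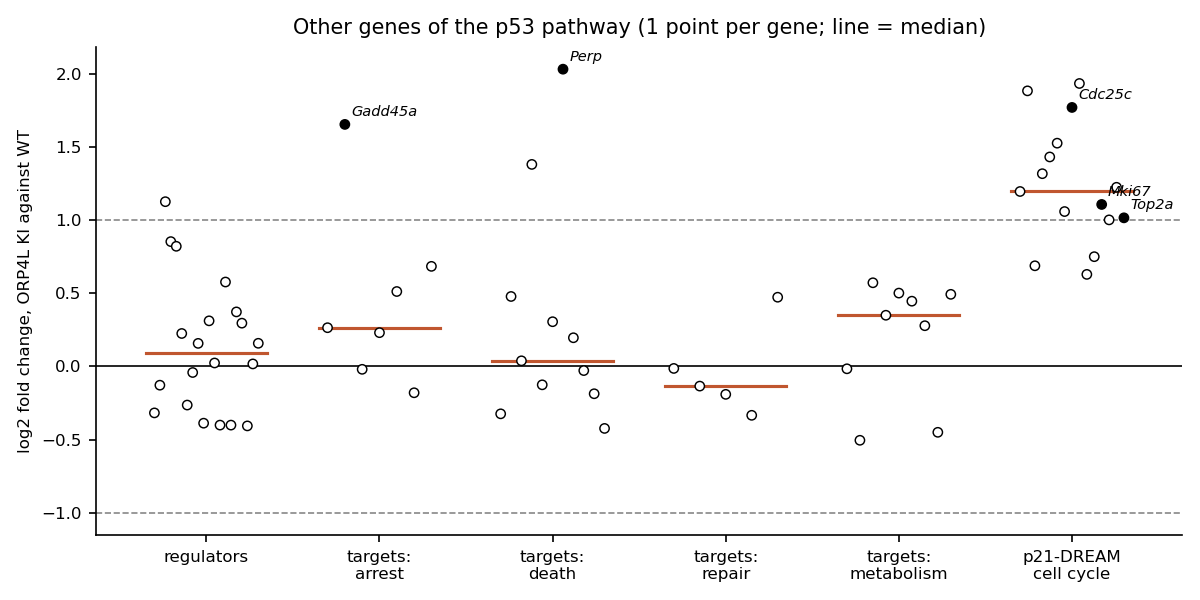
Log2 fold change in ORP4L KI against WT (vertical axis) of the tested genes of 6 lists (horizontal axis), 1 point per gene, with the median of each list in orange and dashed lines at 1 in size. Filled points passed an unadjusted p under 0.01 with a log2 fold change above 1; they are Gadd45a, Perp, Cdc25c, Mki67 and Top2a, and all 15 cell cycle genes lie above 0 where the medians of the other lists lie between -0.13 and 0.35.

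The genes whose levels over the 7 libraries were most like those of Trp53 were Tmem214, Tpst2 and Oxa1l, with a root mean square difference of centred log2 CPM of 0.042, 0.045 and 0.053, where the median over 11588 genes was 0.375. Like Trp53, they varied little between the libraries: Tpst2 had 116, 112 and 96.7 CPM in WT and 93.8, 106, 98.4 and 109 CPM in ORP4L KI. The genes most like Cdkn1a were Gla, Tlcd2 and Capn10, with differences of 0.113, 0.114 and 0.146, where the median was 0.566. Gla had 45.4, 82.9 and 63.7 CPM in WT and 113, 54.0, 81.5 and 124 CPM in ORP4L KI, with replicate 2 low in the ORP4L KI group as it was for Cdkn1a.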

How the data were processed

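T-cell RNA libraries of 3 WT and 4 ORP4L KI mice were compared, with groups and replicate numbers taken from the sample titles. The authors mapped reads with FANSe3 to a mouse mRNA reference, summed splice variants into genes, and deposited 1 unnormalized read count per gene. The authors also deposited RPKM values, computed from the count, the transcript length and the library total, which were used here only to compare levels between genes. The submitters' processing notes name build mm10. The reference version and the treatment of multi-mapping reads are not given in the sources used here.

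Counts were tested in R 4.3.3 with edgeR 4.0.16: filterByExpr (about 10 counts in enough libraries, 15 in all), TMM scaling, the quasi-likelihood test without covariates and Benjamini-Hochberg adjustment over 13462 genes. The standard error was the log2 fold change divided by the square root of F, and the 95% interval used the degrees of freedom of that test. Single levels and count ratios were compared by two-sided exact permutation tests over 35 assignments. The code was tested on simulated data. Alternatives were DESeq2 1.42.0, other scalings, filters and tests, the replicate number as a block, each library left out and, added after the data were seen, the long-transcript score as a covariate and leaving out the 2 libraries where it was highest. Totals of 12918187 to 19665679 counts per library gave the 10 genes 22 to 9273 counts each.

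The members, lists and alternatives were chosen with earlier results of these data known. The genes named are the 10 members, the genes of the pathway lists that passed either threshold or had the smallest p of their list, the 3 genes most like Trp53 and Cdkn1a, and Osbp2. Some markers are named as examples of their lists. Xist, Ddx3y, Trp63 and Trp73 were named after their values were seen. No 2 libraries of the same group agreed within sampling noise. The symbols and coordinates are those of RefSeq on GRCm38.p6, the build that mm10 denotes. Figures were drawn with Matplotlib 3.10.9.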

Additional observations from a re-analysis of the deposited data

Results flagged for a closer look

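In 5 of 35 groups of 4 libraries examined, 1 ORP4L KI library lay far from the other 3 by Dixon's criterion, where chance gives about 1.75 such groups. The ratio of Mdm2 to Trp53 counts was 1.845 in ORP4L KI replicate 1 and 1.406 to 1.475 in the other 3. The same library held 0.1146% of its counts in the 15 p21-DREAM cell cycle genes, beside 0.05744% to 0.06047% in the others. Top2a was at 193.6 CPM there, beside 97.93 to 108.6 CPM. Xpc was at 34.76 CPM there, beside 21.77 to 23.39 CPM. Perp was lowest in ORP4L KI replicate 3, at 5.399 CPM beside 7.914 to 8.149 CPM. ORP4L KI replicate 1 is also the library with the highest share of granulocyte markers (12.2%), and the cause of its values was not tested.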

How the results depend on the processing

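Of 190 refitted log2 fold changes of the 10 genes, 161 under planned and 18 under added alternatives kept their direction and their side of the adjusted threshold. Leaving out ORP4L KI replicate 4 and taking replicates 1 to 3 unblocked are the same fit, which is counted under both settings. Mdm2 passed it with DESeq2's Wald test (log2 fold change 0.76), edgeR's exact test (0.75), edgeR's likelihood ratio test (0.75) and, added later, the long-transcript score as a covariate (0.77), and each of these counts 1 of the 10 genes at an adjusted p under 0.05. With each library left out in turn, Mdm2 ran from 0.65 to 0.89 with adjusted p-values from 0.127 to 0.424. The direction turned for Mdm4 without WT replicate 3 (0.14), for Trp53inp1 without ORP4L KI replicate 2 (-0.039), and for Phlda3 under upper-quartile scaling (-0.000212), under scaling by total counts (-0.059), without WT replicate 3 (-0.19), without ORP4L KI replicate 2 (-0.02) and with both libraries highest in long transcripts left out (-0.27). Over single libraries left out, Mdm4 ran from -0.47 to 0.14, Phlda3 from -0.19 to 0.32 and Trp53inp1 from -0.04 to 0.87. The mean log2 ratio of Mdm4 to Trp53 differed by -0.12 and turned without WT replicate 3 (0.34) and without ORP4L KI replicate 4 (0.02), over a range from -0.39 to 0.34. The genes whose groups did not overlap numbered 2 with total counts alone and 1 to 3 with a library left out. The share among all genes is not given for these settings, and fewer libraries separate more easily. These numbers thus cannot be set beside the 13.8% of all genes, which is for 7 libraries with TMM scaling. Total counts alone shifted the median of all genes by -0.14. Deviations from the group means correlated by -0.129 on average between libraries of the same number and by 0.0421 between the others. The same-number correlations were 0.15, -0.535 and -0.00184 for replicates 1 to 3. So few and spread values cannot show whether the replicate numbers pair the libraries. With the replicate block, on replicates 1 to 3, Mdm2 had a log2 fold change of 0.74 (adjusted p = 0.538), beside 0.73 for the same 6 libraries unblocked. With the block, 10 of the 15 cell cycle genes passed the unadjusted threshold with a log2 fold change above 1 (466 of all 13313 genes). Unblocked, 2 passed (442 of all 13313). With 3 WT libraries, exact permutation tests cannot go below 0.0286, and the cause of each change was not tested.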
